A study of Mus musculus with 8 samples.

Results

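The genes examined were 9 members of the Krüppel-like factor family, Klf2, Klf3, Klf4, Klf6, Klf9, Klf10, Klf11, Klf13 and Klf15, with the retinoid X receptor (RXR) peaks whose summit lay inside the gene or within 50 kb of either gene end. The genes were chosen by measured values, since the peaks at several of them were known when the list was made, so peak numbers and heights at these genes are given as a description, without a test. Of 23961 RXR peaks in 4 newborn mouse hearts, 65 met the rule, and of 4342 regions with a peak in both wild-type hearts, 13 did. The gene table holds 21883 protein-coding genes.

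RXR ChIP-seq (sequencing of the DNA that an antibody to RXR pulls down with its chromatin) was done on single total hearts at postnatal day 0, each fixed first with DSG (a protein cross-linker) and then with FA. The groups were wild type (WT) and edKO. In edKO hearts Rxra and Rxrb (RXRab-/-), 2 of the RXR genes, were deleted in cardiomyocytes only. The endothelial cells, fibroblasts and other cells of an edKO heart thus keep Rxra and Rxrb. Each genotype had 2 hearts, numbered 3 and 4 in both, with an immunoprecipitated library and an input for every heart. The sources used here do not give the Cre driver, the strain or the floxed alleles. Peak lists hold no transcript level, so neither the deletion nor the tissue was checked against its marker genes.

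Krüppel-like factors are zinc finger transcription factors that bind GC-rich and CACCC elements. They are commonly sorted by their partners: Klf9, Klf10, Klf11 and Klf13 recruit the Sin3A corepressor, Klf3 recruits the CtBP corepressor, and Klf2, Klf4, Klf6 and Klf15 include activators with roles in endothelium, injury and metabolism. RXR is a nuclear receptor that pairs with the thyroid hormone, retinoic acid, liver X and peroxisome proliferator-activated receptors, and each partner of such a dimer contacts a hexamer close to AGGTCA.

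The peak lists differed widely in length: those of the WT hearts held 19129 (replicate 3) and 4697 (replicate 4) peaks, and those of the edKO hearts 8 (replicate 3) and 127 (replicate 4). Pairs of values below are in that order, replicate 3 and then replicate 4. Fold enrichment, the authors' own value for each peak, is the fragment pileup at the summit divided by the local background, each with 1 added. In WT replicate 4 and edKO replicate 3 the pileup entered this ratio multiplied by 0.9669 and 0.9917, the scaling of the immunoprecipitate to its input recovered from the peaks, and by 1 in the other hearts. Fragment numbers are given before that scaling. The pileup in fragments and the background were recovered from the deposited peak statistics, assuming the Poisson model of the caller. The labels name both a paired-end format and single-end reads, so a fragment here may be a read extended by the caller. Per position, the background was 2.48 and 2.32 fragments for the WT hearts and 3.11 and 2.96 for the edKO hearts, so it was higher in both edKO hearts. The weakest listed summit held 11, 12, 24 and 17 fragments in the same order. A place with no peak in an edKO heart is therefore one where no summit passed the caller, and low signal there was not measured. In a total heart, fewer cells of a type and less binding per cell cannot be told apart.

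Promoters are shown for the 5 members with a shared WT region over the promoter, or with a WT summit between 250 bases before and 50 bases after the promoter start. The region shared by the WT hearts, which spans the peaks of both, covered the promoters of Klf11 and Klf3. At Klf11 the peak of each WT heart covered it whole. At Klf3 only that of WT replicate 3 did, and WT replicate 4 had 2 peaks that each overlapped a part. Peaks of WT replicate 3 alone covered the promoters of Klf9 and Klf13 and overlapped part of that of Klf15. Each sequence is the 250 bases before the promoter start on the gene's own strand, 5′ to 3′, from the RefSeq table of GRCm38.p6. They lie at chr12:24651121-24651370 for Klf11 (plus strand), chr5:64803271-64803520 for Klf3 (plus strand), chr6:90462326-90462575 for Klf15 (plus strand), chr19:23140976-23141225 for Klf9 (plus strand) and chr7:63938916-63939165 for Klf13 (minus strand). The promoter start is the gene start except for Klf15. Its promoter start, chr6:90462576, lies inside the gene, which begins at chr6:90461043, and so do the printed bases. Capitals mark the E-box CACGTG, the element bound by the circadian CLOCK and BMAL1 proteins and by other basic helix-loop-helix factors, and any RXR hexamer AGGTCA or GGGTCA on either strand, of which the only match is TGACCC in Klf3. Klf9 and Klf13 have neither and are all in lower case.
Klf11: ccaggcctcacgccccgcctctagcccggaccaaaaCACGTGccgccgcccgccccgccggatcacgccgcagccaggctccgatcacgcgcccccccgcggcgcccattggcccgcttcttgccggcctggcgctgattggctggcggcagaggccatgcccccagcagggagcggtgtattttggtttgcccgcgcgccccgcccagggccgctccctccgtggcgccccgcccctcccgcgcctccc
Klf3: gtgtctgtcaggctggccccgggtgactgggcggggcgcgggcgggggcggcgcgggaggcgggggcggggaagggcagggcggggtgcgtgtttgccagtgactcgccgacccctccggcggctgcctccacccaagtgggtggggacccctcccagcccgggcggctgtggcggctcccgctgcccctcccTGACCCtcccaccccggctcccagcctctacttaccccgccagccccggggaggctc
Klf15: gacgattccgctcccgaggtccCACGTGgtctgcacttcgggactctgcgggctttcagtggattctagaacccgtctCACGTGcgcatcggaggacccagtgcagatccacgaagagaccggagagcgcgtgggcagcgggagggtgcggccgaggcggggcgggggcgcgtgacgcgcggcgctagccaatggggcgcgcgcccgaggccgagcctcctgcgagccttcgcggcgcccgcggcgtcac
Klf9: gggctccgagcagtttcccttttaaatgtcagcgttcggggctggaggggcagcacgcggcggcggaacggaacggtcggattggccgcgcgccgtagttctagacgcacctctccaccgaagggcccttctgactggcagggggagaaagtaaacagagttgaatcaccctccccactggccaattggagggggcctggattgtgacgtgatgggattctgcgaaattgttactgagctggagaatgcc
Klf13: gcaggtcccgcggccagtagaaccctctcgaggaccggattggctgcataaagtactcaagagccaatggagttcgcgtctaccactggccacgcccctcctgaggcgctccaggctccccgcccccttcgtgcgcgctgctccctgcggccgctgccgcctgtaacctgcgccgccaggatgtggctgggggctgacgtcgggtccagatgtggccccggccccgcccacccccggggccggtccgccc

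The table held promoters of 8 of the 9 members, and Klf10 was not matched. None of the 8 had AGGTCA on either strand, against 14.0% of the 32851 promoters of the same length in the table. The variant GGGTCA, found in 11.6% of all promoters, occurred in Klf3 alone, 57 bases before the start. The E-box, a palindrome found in 6.02% of all promoters, occurred once each in Klf4, Klf6 and Klf11 and 2 times in Klf15. The GC box GGGCGG, a Krüppel-like factor and Sp element found in 32.7% of all promoters on either strand, occurred in 7 of the 8, Klf9 being the one without it. The CACCC box CCACCC (28.1% of all promoters) had 3 matches in Klf3 and 1 each in Klf2 and Klf13. Klf3 had 6 GC boxes, the highest number among the 8. These promoters were GC-rich, at 76.8% for Klf11, 78.4% for Klf3 and 72% for Klf15, against a median of 52.4% over the table, and Klf9 was lowest of the 8 at 59.6%. A match is a description of these letters and not of a bound site.

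RXR peaks at these genes were numerous in the WT hearts and few in the edKO hearts. The WT hearts had 42 and 16 of them, and the edKO hearts 2 and 5. Even the shorter WT list thus held more of them than the longer edKO list. The WT mean was 29 ± 18.4 peaks (SD, n = 2). The edKO mean was 3.5 ± 2.12 peaks (SD, n = 2). WT hearts thus had 8.29 times as many as edKO hearts, where the ratio over all peaks was 176. The 9 genes held 25% of the 8 peaks of edKO replicate 3 and 3.94% of the 127 of edKO replicate 4, against 0.220% and 0.341% of the lists of WT replicates 3 and 4. Leaving out WT replicate 3 gave a ratio of 4.57 and leaving out WT replicate 4 gave 12. The ratio was 5.8 when edKO replicate 3 was dropped and 14.5 when edKO replicate 4 was.

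Most of the genes had a peak in each WT heart. In WT replicate 3, 8 of the 9 had one within 50 kb, where 64.5% of all protein-coding genes did. In WT replicate 4, 7 of the 9 did, against 33.5% of all protein-coding genes. In edKO replicate 3 it was 2 of the 9, Klf9 and Klf10 (0.119% of all genes), and in edKO replicate 4 it was 4 of the 9, Klf9, Klf10, Klf11 and Klf13 (1.52% of all genes). A region shared by both WT hearts lay within 50 kb of 6 of the 9, Klf3, Klf9, Klf10, Klf11, Klf13 and Klf15, where 32.4% of all protein-coding genes had one. Klf2, Klf4 and Klf6 had none. Because these peaks chose the genes, nothing is read from the shares.

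**Figure D1:**
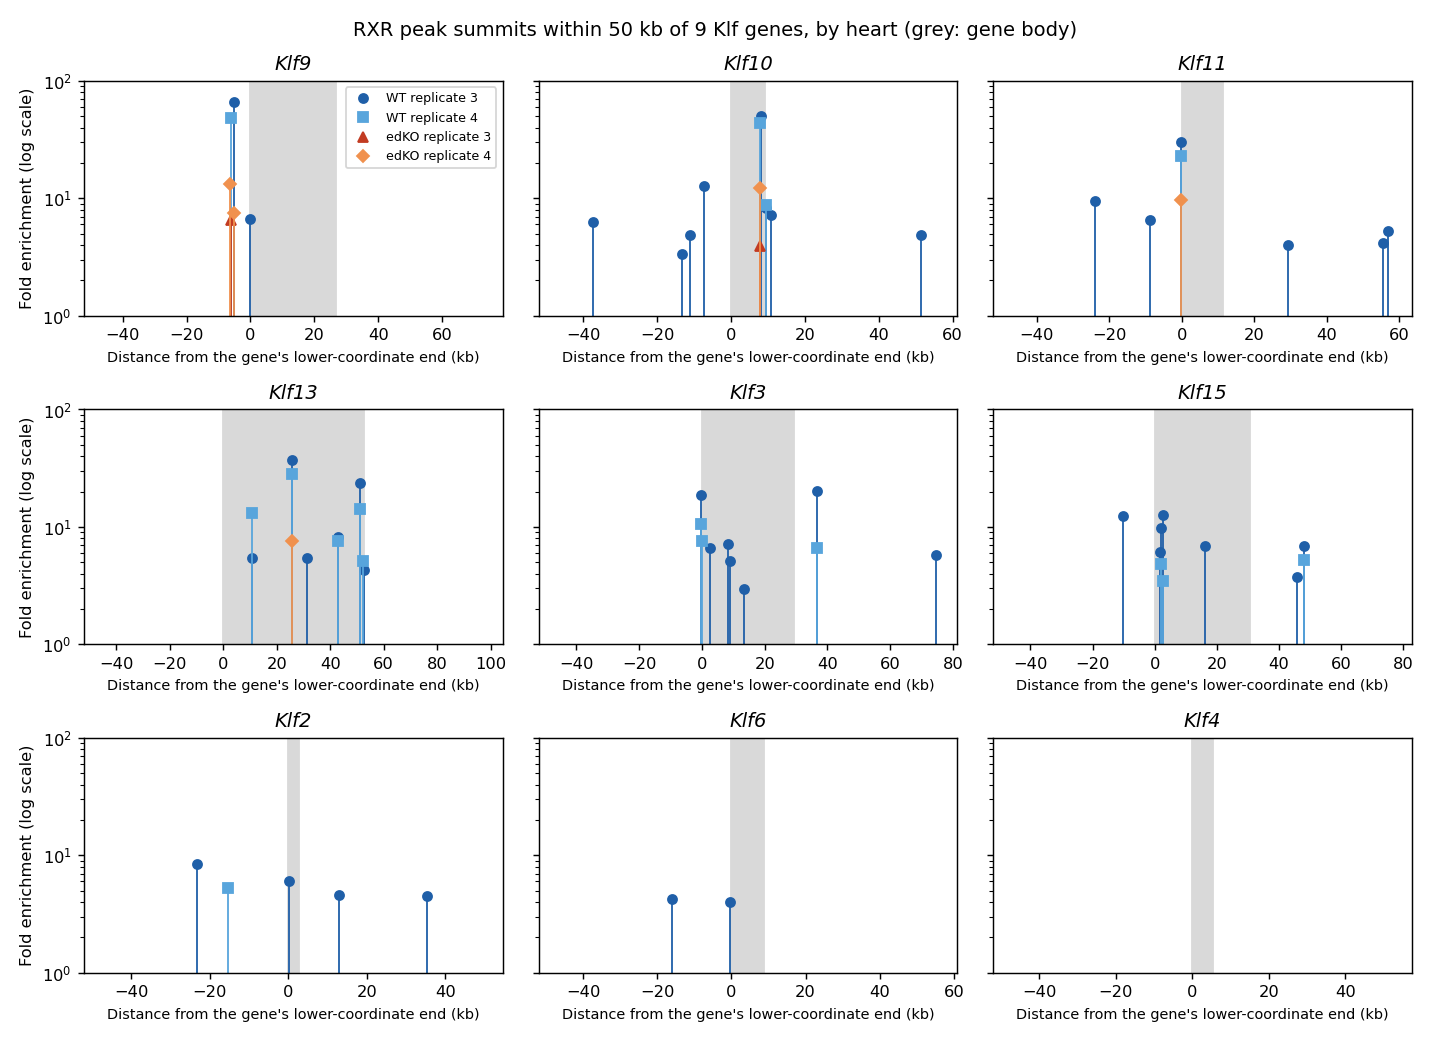
RXR peak summits within 50 kb of each of the 9 genes, placed by distance from the lower-coordinate gene end (x axis, kb) with the authors' fold enrichment on a log scale (y axis), one symbol per heart and the gene body in grey. The peaks of edKO hearts lie at Klf9, Klf10, Klf11 and Klf13, and Klf4 has no peak in any heart.

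Among the 9 genes, the 4 of the Sin3A group were the 4 with a peak in an edKO heart, and they held the strongest WT regions. Klf16, a family gene outside the 9 that also recruits Sin3A, had no edKO peak and a strongest counted WT mean of 17.3, nearest to Csnk1g2. Klf14, another family gene outside the 9 that is commonly sorted with the Sin3A group, had no peak within 50 kb in any heart. Neither Klf14 nor Klf16 thus had an edKO peak. Of the 13 shared WT regions, 4 had a peak in edKO replicate 4, against 2.88% of all shared WT regions, and 2 of these also had a peak in edKO replicate 3, against 0.184%. Each of the 4 was the strongest region of a different gene. The grouping by corepressor was made with these values known, within a list chosen by its peaks.

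Klf9, a thyroid hormone- and glucocorticoid-inducible repressor, had the strongest region of the 9 genes. The gene lies at chr19:23141226-23168129 on mm10, on the plus strand, and the region lay upstream of it at chr19:23134017-23136350, with no other protein-coding gene nearer. Its fold enrichment was 65.7 and 48.4 in the WT hearts and 6.55 and 13.1 in the edKO hearts. All 4 hearts had a peak there, and both WT values lay above both edKO values. The WT summits held 228 fragments (95% Poisson interval 199 to 260) and 179 fragments (154 to 207), and the edKO summits 32 (21.9 to 45.2) and 51 (38.0 to 67.1). These intervals, as all those below, cover counting error only. The WT mean was 57.0 ± 12.3 (SD, n = 2) and the edKO mean 9.84 ± 4.66 (SD, n = 2), a ratio of 5.80. These means take the highest peak of each heart in the region, and the summits of those peaks lay at different positions, as given below. The ratio is therefore for the region and not for a single site. By mean WT fold enrichment the region was rank 4 of 4342, and within the single lists it held ranks 3 and 4 in the WT hearts, rank 4 of 8 in the shorter edKO list and rank 5 of 127 in the longer one.

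The Klf9 region was also wide and had its summit in different places in the WT hearts. It covered 2334 bp over both hearts. The summit lay 5218 bp before the gene start in WT replicate 3 and 6233 bp before it in WT replicate 4. That distance of 1015 bp was reached by only 2 of the 4342 shared regions (0.0461%), Klf9 among them. Only wide peaks can have summits so far apart, so this share also reflects width. By width the Klf9 peaks held ranks 2 and 1 in the lists of WT replicates 3 and 4. In edKO replicate 4 the caller listed 2 separate peaks in the region, 1089 bp apart, with summits 6272 and 5183 bp before the start and fold enrichments of 13.1 and 7.47. The first lay 39 bp from the summit of WT replicate 4 and the second lay 35 bp from that of WT replicate 3. The single peak of edKO replicate 3, 6222 bp before the start, lay 11 bp from the summit of WT replicate 4. The hearts thus placed their summits at 2 positions about 1 kb apart, and edKO replicate 4 had a peak at each. The second edKO peak held 50 fragments, nearly as many as the 51 of the first, over a local background of 5.83 fragments against 2.96, so its lower fold enrichment came with a higher background.

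**Figure D2:**
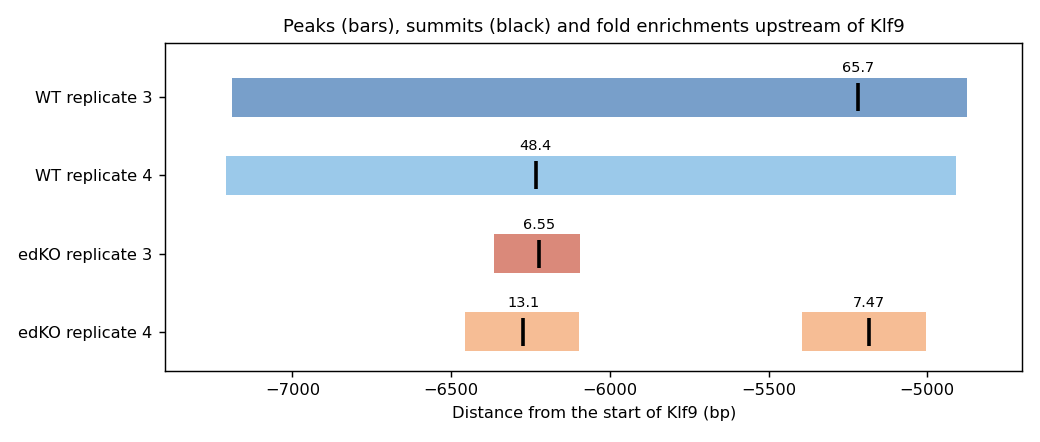
Peaks upstream of Klf9 in the 4 hearts, with distance from the gene start in bp on the x axis, bars for the extent of each peak, black ticks for summits and the authors' fold enrichment above each. The wide WT peaks have their summits at different places in the region, and edKO replicate 4 has a separate peak near each.

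A second Klf9 peak lay at the promoter in WT replicate 3 only, at chr19:23140659-23141608, with its summit 98 bp before the start. Its fold enrichment was 6.63 from 24 fragments, close to the median of 5.46 for all peaks of that heart. No other heart had a peak there.

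Klf10, the TGF-beta-inducible early gene product, lies at chr15:38291464-38300711 and had a region inside the gene at chr15:38298792-38300215. Its fold enrichment was 50.7 and 43.7 in the WT hearts and 3.97 and 12.4 in the edKO hearts. As at Klf9, all 4 hearts had a peak and both WT values lay above both edKO values. The fragments at the summit numbered 237 (208 to 269), 149 (126 to 175), 27 (17.8 to 39.3) and 48 (35.4 to 63.6) in the same order. The WT mean was 47.2 ± 4.91 (SD, n = 2), rank 6 of 4342, and the edKO mean 8.17 ± 5.95 (SD, n = 2), a ratio of 5.78. The edKO replicate 3 value was the lowest of the 8 peaks of that heart, over a local background of 6 fragments where the heart's lowest was 3.11. The edKO hearts differed by 3.12 times at Klf10 and by 2.01 times at Klf9, with edKO replicate 4 higher at both.

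The summits at Klf10 lay within 152 bp of each other. The summit of WT replicate 3 was 112 bp from that of WT replicate 4, 152 bp from that of edKO replicate 3 and 115 bp from that of edKO replicate 4. The summits of the edKO hearts lay 40 and 3 bp from that of WT replicate 4. A second shared region, 335 bp outside the higher-coordinate gene end at chr15:38300495-38301388, had fold enrichments of 8.32 and 8.75 in WT replicates 3 and 4 (8.54 ± 0.304, SD, n = 2) and no edKO peak. WT replicate 3 alone had 6 further peaks, from 3.38 to 12.6, the highest of them 7351 bp outside the lower-coordinate end with 43 fragments. That of 6.32, 37332 bp outside the same end, lay nearest to Odf1. With 8 peaks in WT replicate 3, Klf10 had the most of the 9 genes, and 5.05% of all protein-coding genes had at least as many.

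Klf11, the other TGF-beta-inducible member, lies at chr12:24651371-24662782 on the plus strand and had its region on the promoter printed above. The region, chr12:24650631-24651831, covered all of the 250 bases. Its fold enrichment was 30.2 in WT replicate 3 and 23.1 in WT replicate 4, and 9.62 in edKO replicate 4, with no peak in edKO replicate 3. The summits held 169 (144 to 196), 109 (89.5 to 131) and 46 (33.7 to 61.4) fragments. The WT mean of 26.7 ± 5.03 (SD, n = 2) was rank 80 of 4342, and the edKO value was 36.0% of it, the highest share of the 4 regions. Summits were 275, 268 and 245 bp before the start in the 3 hearts, so the edKO summit fell inside the printed bases and the WT summits just before them. WT replicate 3 had 5 further peaks near Klf11, from 4.02 to 9.47, of which that at 9.47 lay nearest to the neighbouring gene Grhl1 and that at 4.02 inside Cys1, and the 2 farthest, at 44103 and 45408 bp, lay nearest to Rrm2.

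Klf13, which is closest to Klf9 in the family and is known for a role in heart development, had the most shared regions of the 9 genes. There were 4, all inside the gene (chr7:63886351-63938915, minus strand), a number reached by 1.82% of all protein-coding genes. The strongest, at chr7:63911524-63912642, lay 26803 bp into the gene. Its fold enrichment was 37.4 and 27.9 in the WT hearts. It was 7.58 in edKO replicate 4, and the other edKO heart had no peak. The summits held 154 (131 to 180), 103 (84.1 to 125) and 29 (19.4 to 41.6) fragments, and the WT mean was 32.7 ± 6.70 (SD, n = 2), rank 38. The summits of WT replicate 4 and edKO replicate 4 were 1 bp apart. The edKO value was 23.2% of the WT mean.

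The other 3 regions of Klf13 had no edKO peak. That nearest to the start, chr7:63937095-63938788 with its summit 1395 bp into the gene, had 23.8 and 14.3 in WT replicates 3 and 4 (19.0 ± 6.69, SD, n = 2, rank 234), and WT replicate 4 had a second peak of 5.07 within it. At chr7:63929050-63929487 the values were 8.18 and 7.59. At chr7:63896909-63897294, 41851 bp into the gene, the order of the hearts was turned: 5.45 from 18 fragments in WT replicate 3 and 13.1 from 44 in WT replicate 4, with counting intervals of 10.7 to 28.4 and 32.0 to 59.1 fragments that do not overlap. WT replicate 3 also had a promoter peak of 4.30, with its summit 133 bp before the start.

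Klf3 and Klf15 had regions in both WT hearts and no peak in either edKO heart. At Klf3 (chr5:64803521-64832901, plus strand), the CtBP-dependent repressor, the promoter region was chr5:64802407-64803899, which covers the printed bases and overlaps the neighbouring gene Gm38457. Its fold enrichment was 18.7 from 64 fragments (49.3 to 81.7) in WT replicate 3 and 10.5 from 35 fragments (24.4 to 48.7) in WT replicate 4, a mean of 14.6 ± 5.77 (SD, n = 2), rank 525. The summits lay 387 and 382 bp before the start. WT replicate 4 split the region in 2, with a second summit of 7.59, 13 bp after the start. A second Klf3 region lay 7312 bp past the end of the gene, at chr5:64839974-64840539, with 20.4 in WT replicate 3 and 6.60 in WT replicate 4 (13.5 ± 9.74, SD, n = 2, rank 642), so the WT hearts differed 3.09 times there. The other 5 peaks of WT replicate 3 ran from 2.98 to 7.18.

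Klf15, a glucocorticoid-inducible and circadian regulator of cardiac lipid and amino acid use, lies at chr6:90461043-90491803 on the plus strand and had 3 shared regions, all lower than the strongest ones above. With only peaks of a −log10 q of at least 10 kept, none of the 3 was shared by the WT hearts. At chr6:90462786-90463220, 396 bp past the promoter start, fold enrichment was 9.86 in WT replicate 3 and 4.84 in WT replicate 4 (7.35 ± 3.55, SD, n = 2). At chr6:90463331-90463841, 1012 bp past it, the values were 12.6 from 43 fragments and 3.46 from 24 fragments over a local background of 6 (8.04 ± 6.49, SD, n = 2, rank 2056). The third, 17484 bp past the gene at chr6:90509093-90509410, had 6.89 and 5.26. The means of the first 2 lay near the median mean of 7.81 over all shared regions, and that of the third, 6.07 (rank 3240), was lower. WT replicate 3 was the higher at each of the 3. The promoter peak of WT replicate 3, with its summit 40 bp after the printed bases, had 6.10, and the strongest unshared peak, 10082 bp outside the gene, had 12.3.

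Klf2, Klf4 and Klf6 had no shared region. Klf2 (chr8:72319062-72321654, plus strand), an endothelial flow-induced factor, had 4 peaks in WT replicate 3, of 8.48, 6.03, 4.59 and 4.51, and 1 in WT replicate 4 of 5.26, none of which overlapped. The peak of 6.03 lay at the start of the gene, with its summit 97 bp after it. The peak of 4.59 lay nearest to the neighbouring gene Eps15l1, and that of 4.51 lay inside Eps15l1. Klf6 (chr13:5861489-5870393, plus strand), an injury-response factor, had 2 peaks in WT replicate 3, of 4.25 and of 4.02, the latter 451 bp before the start and from 13 fragments, while its nearest peak in WT replicate 4 was 1089.6 kb away. Klf4 (chr4:55527137-55532475, minus strand), a stem cell and vascular factor, had none in any heart, the nearest being 72.6 kb away in WT replicate 3 at 3.98 and 119 kb away in WT replicate 4 at 3.68. At the edge of the 50 kb window, the farthest peaks inside were at 45408 bp (Klf11, 5.31) and 45286 bp (Klf3, 5.74), and just outside it a region of both WT hearts lay 50636 bp from Klf2, at 13.2 and 9.42.

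**Figure D3:**
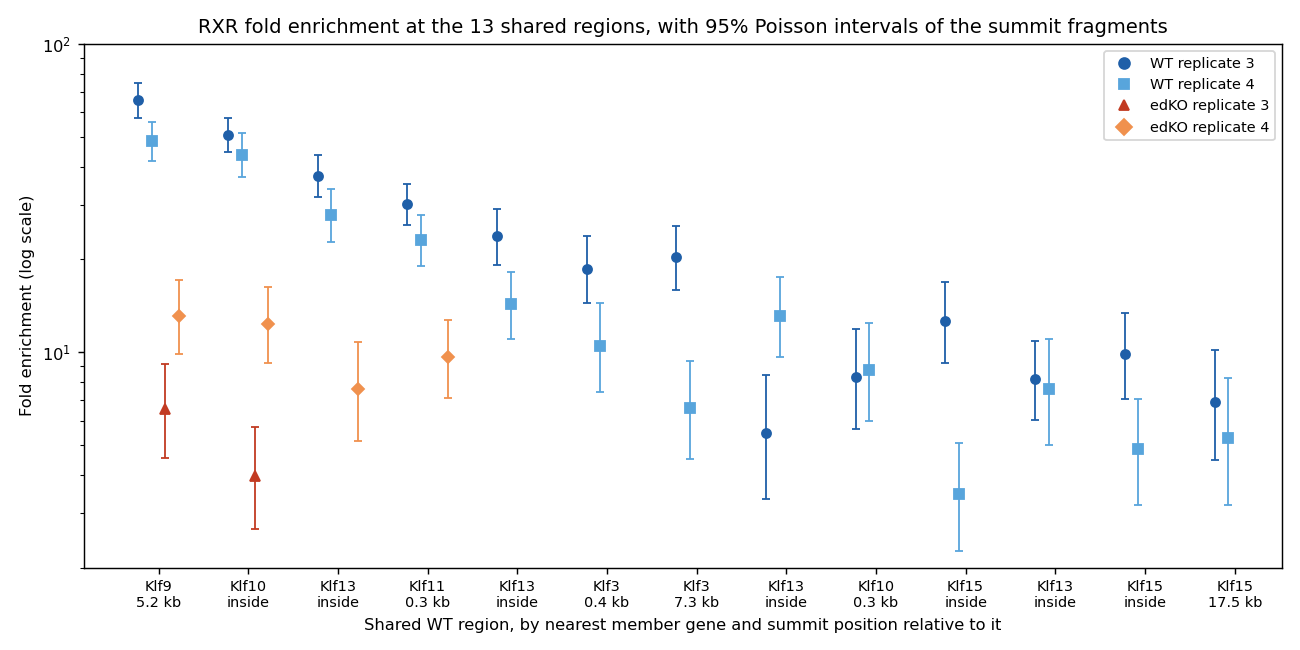
Fold enrichment (y axis, log scale) of the 13 shared WT regions, ordered by WT mean, one symbol per heart, with 95% Poisson intervals of the summit fragments divided by the local background as error bars. Peaks of edKO hearts appear only at the 4 regions with the highest WT means, below both WT values at each.

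The order of the genes by the mean WT fold enrichment of their strongest region was Klf9 (57.0), Klf10 (47.2), Klf13 (32.7), Klf11 (26.7), Klf3 (14.6) and Klf15 (8.04). Their median was 29.7, where that of all protein-coding genes with a shared region was 8.67. The order was the same within each WT heart. It ran 65.7, 50.7, 37.4, 30.2, 18.7 and 12.6 in WT replicate 3. In WT replicate 4 it ran 48.4, 43.7, 27.9, 23.1, 10.5 and 3.46. The region of Klf15 was picked by its mean, and in WT replicate 4 the other Klf15 regions were higher, at 4.84 and 5.26. WT replicate 3 was the higher at each of these regions, so ranges taken over both hearts overlapped for some neighbours. Those of Klf9 and Klf10 were 48.4 to 65.7 and 43.7 to 50.7. Those of Klf13 and Klf11 were 27.9 to 37.4 and 23.1 to 30.2. The WT values of Klf10 and Klf13 did not overlap, nor did those of Klf11 and Klf3, while the ranges of Klf3 and Klf15, 10.5 to 18.7 and 3.46 to 12.6, overlapped.

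The 2 WT hearts were compared with each other at the 13 regions and at all shared regions. WT replicate 3 was higher at 11 of 13 (84.6%), against 82.7% of all shared regions, and its value was a median of 1.34 times that of WT replicate 4, from 0.415 to 3.65, against 1.49 over all. Summits of the WT hearts were a median of 8 bp apart, against 36 bp over all shared regions, and 10 of 13 lay within 25 bp (76.9% against 37.9%). Across the 13 regions Spearman's rho between the WT hearts was 0.703, against 0.562 over all 4342. This is a description across regions of the same 2 libraries, which are not independent points. The 13 regions were also higher, with a median WT mean of 13.5 against 7.81 over all shared regions. Summit distances and rho were not compared at matched height, so they are not read as a trait of these genes. The median fold enrichment was 18.7 in WT replicate 3 and 10.5 in WT replicate 4, against 9.47 and 6.13 over all shared regions. A summit lay inside a protein-coding gene for 8 of 13 (61.5%), against 57.1%. Exons, introns and UTRs were not analysed here, since the gene table gives gene ends.

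Of the 42 peaks of WT replicate 3 at these genes, 29 overlapped no peak of WT replicate 4. Their median fold enrichment was 5.45, from 2.98 to 12.6, against 5.17 for all such peaks of that heart. In the other direction, 15 of 16 WT replicate 4 peaks had a partner, the exception being that at Klf2. The whole lists held 19129 peaks of WT replicate 3, 4697 of WT replicate 4 and 4342 shared regions. Most WT replicate 3 peaks thus lacked a partner over the whole list too, and most WT replicate 4 peaks had a partner. The exact shares over all peaks are not given here, so these counts are not read as a trait of the Klf genes.

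Whether a Klf region had a peak in edKO replicate 4 went with its height in WT. The lowest WT mean with such a peak was 26.7, at Klf11, and the highest without was 19.0, the region nearest to the start of Klf13. Over the series, 60 of the 80 shared regions at or above 26.7 had a peak in edKO replicate 4 (75%), and 65 of the 4262 below it did (1.53%). In edKO replicate 4 the 4 Klf regions held 23.03% (Klf9), 26.2% (Klf10), 23.2% (Klf13) and 36.0% (Klf11) of their WT means, a median of 24.7%, where the median over all 125 regions with such a peak was 25.04%, from 13.1% to 49.6%. The 4 Klf values lay within that range, which is over regions of all heights, 65 of them with a WT mean below 26.7. The peaks of edKO replicate 3 held 11.5% of the WT mean at Klf9 and 8.41% at Klf10. At Klf9 the WT mean joins summits at different positions in the region, as described above. Cardiomyocytes and the other cells of a heart cannot be told apart in these lists.

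**Figure D4:**
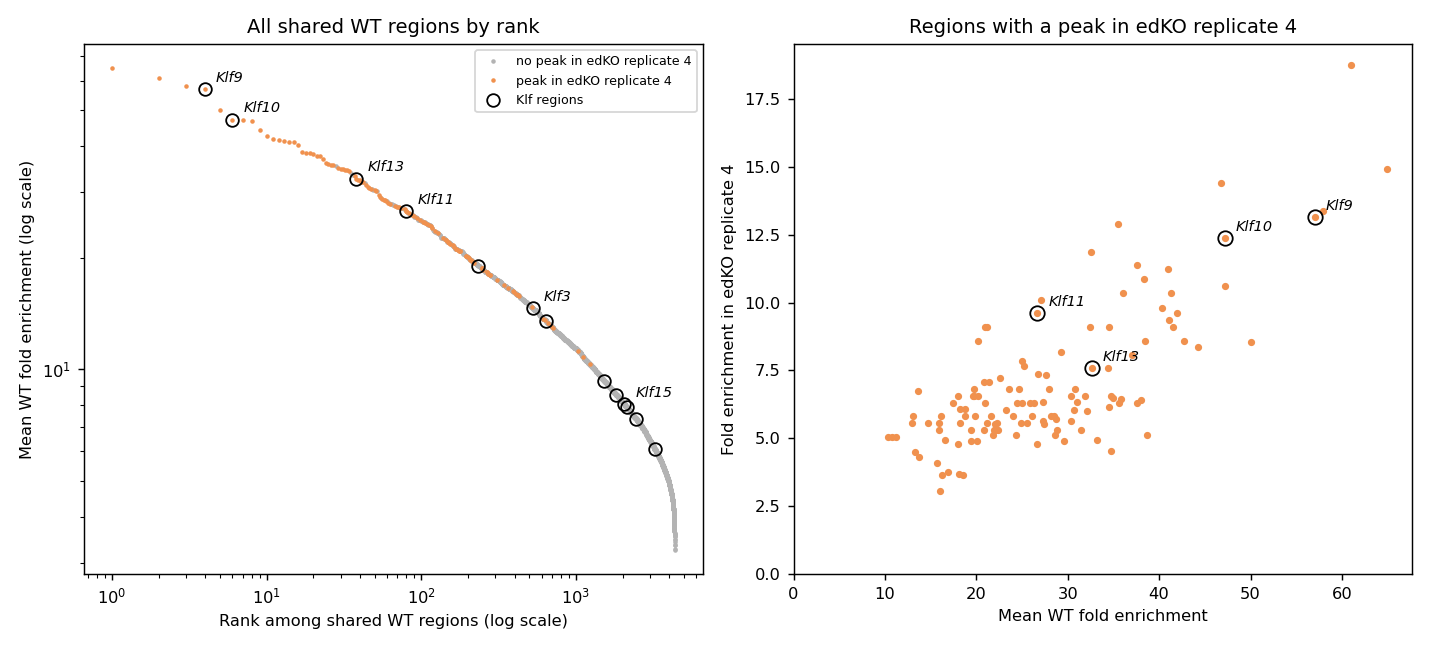
Left, mean WT fold enrichment of all 4342 shared regions against rank, both on log scales, with regions that have a peak in edKO replicate 4 in orange and the 13 Klf regions circled. Right, fold enrichment in edKO replicate 4 against the WT mean at the 125 regions with such a peak, where Klf9, Klf10, Klf11 and Klf13 (circled) lie among the others.

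The regions most like that of Klf9 over the 4 hearts, by Euclidean distance of log2 fold enrichments with no peak set to a fold of 1, were those at Pkd2l1 (distance 0.69), Klf10 (0.83) and Elovl5 (2.71). The fold of 1 is a fill-in and not a measurement, and it makes up nearly all of the distance of Elovl5, so this order mainly shows which regions have a peak in edKO replicate 3. Pkd2l1, a channel gene, had 59.99, 40.2, 6.76 and 8.54 in the WT and edKO hearts. The region 6664 bp from Elovl5, a fatty acid elongase gene, had 64.9, 51.0 and 13.4 in the WT hearts and edKO replicate 4 and no peak in edKO replicate 3. Klf9 and Klf10 both had a peak in every heart. All 8 peaks of edKO replicate 3 overlapped a shared WT region, and the nearest genes of the other 6 were Tmem88, Fasn, Cipc, Tpt1, Pkd2l1 and Ak1.

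The rest of the family was counted in the same way. Because the 9 genes were chosen by their peaks, no contrast with them is read from these counts. Among the 8 other Klf genes, 2 had one within 50 kb, Klf7 and Klf16, and among the 9 Sp genes, which encode the related zinc finger factors, 3 did, Sp1, Sp4 and Sp7, where 32.4% of all protein-coding genes had one. Inside Klf7 the values were 5.17 and 4.60. The strongest region counted for Klf16, which like Klf9 recruits Sin3A, had 18.3 and 16.3 but lay 45705 bp away and nearest to Csnk1g2. Sp4 had its strongest region 709 bp away, at 4.804 and 3.88, while those counted for Sp1 (12.1 and 9.63) and Sp7 (10.3 and 7.50) lay nearest to Pcbp2 and Sp1. Over the genes with a shared region only, the median strongest WT mean was 11.1 for the 2 Klf genes and 8.92 for the 3 Sp genes. It was 8.67 for all protein-coding genes with one. The 11.1 is the midpoint of 4.88 (Klf7) and 17.3 (the region nearest to Csnk1g2), and the 8.92 is the region nearest to Sp1 that was counted for Sp7. Over both lists the number of genes with a shared region was 5, and it was 3 with a window of 10 kb and 9 with one of 100 kb. None of the 8 Klf and 9 Sp genes had a peak of an edKO heart within 50 kb, where 0.119% of all genes had one of edKO replicate 3 and 1.52% one of edKO replicate 4.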

How the data were processed

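RXR ChIP-seq libraries (4 immunoprecipitates and 4 inputs) came from 2 WT and 2 edKO hearts, which the labels call biological replicates. The submitters' processing notes name cutadapt, BWA, SAMtools and MACS3 and the build mm10 (GRCm38). The versions and settings were not given in the sources used here. Each heart has 1 peak list from the authors. The deposited columns hold peak positions in bp, a display score that was not used, a fold enrichment (a ratio), and −log10 p and −log10 q values as the authors' caller wrote them. Coordinates are printed 1-based.

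Fragments at each summit and the local background were solved from the fold enrichment (pseudocount 1) and the Poisson −log10 p, with the immunoprecipitate scaled by 0.9669 in WT replicate 4 and 0.9917 in edKO replicate 3, and 100% of peaks gave whole fragments within 0.02 in each list. Poisson intervals are at 95%. WT peaks that overlapped by at least 1 bp formed a shared region with the summit of WT replicate 3. Genes and promoters came from RefSeq tables of GRCm38.p6, the build of the peaks. The members and gene lists were chosen with earlier results of these data known. Named genes were all members, other Klf and Sp genes with a shared region, the gene nearest to each region described, and the 3 genes most like the leading member. Alternatives were windows of 10 and 100 kb, a −log10 q of at least 10, a reciprocal overlap of 50%, nearest genes only, and each heart left out. The windows for the other Klf and Sp genes were chosen after seeing the data. Python 3.11.15 with pandas 2.3.3 and scipy 1.17.1 was used.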

Additional observations from a re-analysis of the deposited data

How the results depend on the processing

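Of 51 alternative values, 46 stayed within 1.5 times of the reported count or within the spread of the WT hearts. For fold enrichments, leaving out a WT heart could not fail this rule, since each of 2 values lies closer to their mean than their SD. Klf15 thus passed with 3.46 and 12.6 against a mean of 8.04. Windows of 10 and 100 kb left the strongest region unchanged at each gene that had one. The number 46 is therefore not a measure of stability. The number of shared Klf regions, 13, ranged from 16 to 42 with 1 WT heart left out, when all peaks of the other heart count. The WT to edKO ratio of peak numbers, 8.29, ranged from 4.57 to 14.5 with 1 heart left out (4.57 without WT replicate 3, 14.5 without edKO replicate 4), and was 5.71 at 10 kb and 10.7 at 100 kb. Other Klf and Sp genes with a shared region numbered 5, against 3 at 10 kb and 9 at 100 kb. At a −log10 q of at least 10, Klf15 lost its regions and 9 regions at 5 genes were left. No test was run, so none was fitted with a replicate block, and the labels do not say that a heart's number pairs it with a heart of the other genotype. The weakest peaks listed in the edKO hearts held 24 and 17 fragments, and signal below the caller's threshold is not in the lists.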

Other observations

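Klf9, Klf10 and Klf15 belong to the circadian and stress-induced genes of many tissues, so 2 further lists were counted in the same way. Of 19 genes of the circadian clock and its output, 16 (84.2%) had a shared WT region within 50 kb, with 35 regions and a median strongest mean fold enrichment of 10.3. Of these regions 2 had a peak in edKO replicate 4, at the repressor gene Nr1d2 (5.13) and the output gene Dbp (8.59), where 2.88% of all shared regions had one. Of 17 immediate early transcription factor genes, 13 (76.5%) had a shared region, with 23 regions, a median of 8.62 and 1 peak in edKO replicate 4, at Atf3 (10.4), beside the same 2.88%. Over all protein-coding genes 32.4% had a shared region, with a median of 8.67. Neither list had a peak of edKO replicate 3, which 0.184% of all shared regions had. Both lists were chosen with results of these data known, and genes with neighbours in the same list can share a region.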
